A study of Mus musculus with 6 samples.

Results

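The genes described here make or break down heme, the iron-holding porphyrin of cytochromes, catalase and many other enzymes. They are 10 of the 16315 genes in the expression table, taken by NCBI Gene identifier: the heme oxygenases Hmox1 (15368) and Hmox2 (15369), the biliverdin reductases Blvra (109778) and Blvrb (233016), the heme transporter Slc48a1 (67739), and the synthesis enzymes Alas1 (11655), Alad (17025), Uros (22276), Ppox (19044) and Fech (14151). The messenger RNA came from B16F10, a pigmented mouse melanoma line of C57BL/6 origin grown in culture, in a series on inhibiting the cystine transporter chain xCT. One group of 3 libraries came from cells given 0.05% DMSO as vehicle, and the other 3 came from cells given SAS, named by these letters alone, at a labelled dose of 500 (unit written μm) for 24 h. Both groups are the same parental line with no genetic change named. Levels are in FPKM, fragments scaled to transcript length and library total, so that genes can be compared per length.

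Heme is built in a chain of enzymatic steps that start and end in the mitochondrion. ALAS1 joins glycine and succinyl-CoA in the first and rate-setting step outside red cells, and heme itself represses that enzyme. Ferrochelatase (FECH) inserts iron in the last. Heme oxygenases open the ring to give biliverdin, carbon monoxide and ferrous iron, and biliverdin reductases turn biliverdin into bilirubin. HMOX1 is the stress-inducible oxygenase, known as a target of the activator NRF2 and of the heme-sensing repressor BACH1, whereas HMOX2 is regarded as the constitutive form.

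SAS-treated cells held more mRNA of the inducible oxygenase Hmox1, the reductase Blvrb and the lysosomal heme exporter Slc48a1, and modestly more of 3 enzymes of heme synthesis. Of the 10 genes, 6 rose (Hmox1, Blvrb, Slc48a1, Uros, Fech and Ppox), 1 fell (Alad) and 3 did not pass the test (Hmox2, Blvra and Alas1), at a limma adjusted p below 0.05. The call of Alad was lost when any 1 library was left out, as given with its values, and the 6 rises held in each such case. Among all 10615 genes tested, 37.4% passed, 18.9% as higher and 18.5% as lower in SAS, so a passing gene was common in this comparison. The values of the groups did not overlap for 8 of the 10 genes, against 49.4% of all genes tested. The median log2 fold change of the 10 genes was 0.31, beside -0.01 over all genes tested. The 10 genes were chosen with earlier results of these data known, so these comparisons with all genes are no test of them as a set. On the log2(FPKM + 1) scale, which shrinks the differences of low genes, the rises ranged from 1.96 for Hmox1 to 0.27 for Ppox, and the median absolute difference over all genes tested was 0.15. In RNA from a whole culture, a change in the number of cells holding a transcript and a change in the amount per cell cannot be told apart.

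**Figure D1:**
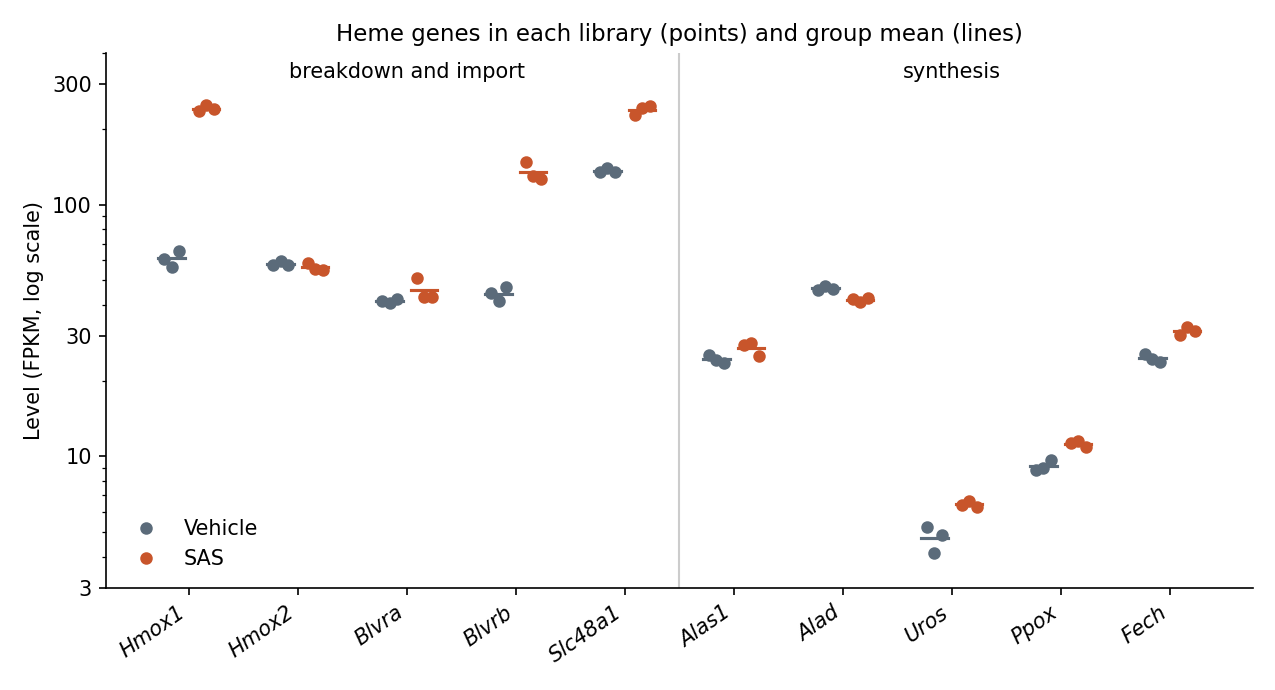
Level of each gene in FPKM on a log axis, with 1 point per library, 3 per group, and a line at the group mean. Hmox1, Blvrb and Slc48a1 stand well above their vehicle points in SAS (240.7, 134 and 238 FPKM against 61.1, 44.2 and 136 FPKM), while Hmox2 overlaps between groups.

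The columns of the expression table name the vehicle libraries by 0 h, whereas the protocol describes 24 h with vehicle, and what 0 h means is not stated. Whether time in culture also differed between the groups is therefore unknown, and such a difference cannot be told apart from SAS. The libraries summed to between 590238 and 617275 FPKM, and 9746 to 9826 genes reached 1 FPKM in each. Taken across genes, which are no independent replicates, the Pearson correlation of log2(FPKM + 1) was 0.9968 or more within a group and 0.9919 or less between groups. The 9 pigment cell markers summed to 7652 to 8616 FPKM in vehicle and 9051 to 10981 FPKM in SAS, with all 9 at 1 FPKM or more in every library. Of 11 erythroid symbols, which matter here because red cell precursors make most heme, 7 had a row, and they summed to 1.95 to 2.11 FPKM in vehicle and 2.02 to 2.52 FPKM in SAS. Most of that sum was Epor, at 1.40 to 1.79 FPKM, and Klf1, at 0.28 to 0.76 FPKM over all libraries. Neither passed the test (limma adjusted p = 0.290 and 0.839). Gata1 was listed at 0 in every library, and the erythroid synthase Alas2 at no more than 0.03 FPKM. Hba-a1 was at 0 in every vehicle library and at 0.05 FPKM in every SAS library. Of 8 macrophage symbols 4 had a row, and their sum was higher in SAS, at 4.72 to 4.95 FPKM against 2.47 to 3.04 FPKM, almost all of it Cd68 and Lyz2. The macrophage receptor Csf1r was listed at 0 in vehicle and at no more than 0.01 FPKM in SAS. Of 7 fibroblast symbols 5 had a row, and they summed to 1.16 to 1.42 FPKM in vehicle and 0.87 to 0.96 FPKM in SAS.

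Hmox1, which carries out the first step of heme breakdown, showed the largest difference of the 10 genes. It stood at 61.05, 56.74 and 65.42 FPKM in vehicle replicates 1 to 3 and at 235.84, 247.54 and 238.73 FPKM in SAS replicates 1 to 3. Every SAS library was more than 3 times as high as any vehicle library, and the spread within either group was small. The mean rose from 61.1 ± 4.34 to 240.7 ± 6.09 FPKM (limma adjusted p = 1.96e-08, log2 fold change 1.96 with an SE of 0.06), rank 2 from the top among the 10615 genes tested. Here and below, values after ± are SDs over the n = 3 libraries of a group. Macrophages are known for high Hmox1, and the part of the macrophage marker sum given above in this rise was not tested.

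Hmox2, the other oxygenase, stood at 57.68, 59.45 and 57.45 FPKM in vehicle and at 58.51, 55.34 and 54.87 FPKM in SAS. The groups overlapped. Its log2 fold change was -0.05, with a 95% confidence interval of -0.16 to 0.07, and it did not pass the test (limma adjusted p = 0.494). That interval leaves room for a fall to 0.89 times or a rise to 1.05 times the vehicle level.

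The oxygenases were about equally abundant in vehicle and far apart in SAS. Hmox1 made up 51.4%, 48.8% and 53.2% of the summed oxygenase FPKM in the vehicle libraries and 80.1%, 81.7% and 81.3% in the SAS libraries. Their sum was 119 ± 3.37 FPKM in vehicle and 297 ± 5.16 FPKM in SAS, 2.49 times as high. The log2 difference between Hmox1 and Hmox2 within a library averaged 0.07 ± 0.13 in vehicle and 2.08 ± 0.08 in SAS. It was higher in all 3 SAS libraries than in any vehicle library (exact permutation p = 0.1, 2-sided, the smallest that 3 against 3 can give). The values of each gene given above already fix this outcome, so the test adds no support to them.

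Blvrb, a biliverdin reductase that also reduces flavins, showed the next largest difference. Its level was 44.40, 41.34 and 46.99 FPKM in vehicle and 147.26, 129.66 and 126.10 FPKM in SAS. The groups were far apart, and SAS replicate 1 was the highest library. The mean rose from 44.2 ± 2.83 to 134 ± 11.3 FPKM (limma adjusted p = 2.04e-07, log2 fold change 1.58 with an SE of 0.07), rank 9 from the top.

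Blvra, the reductase for the biliverdin isomer that heme oxygenase forms in adult tissue, stood at 41.45, 40.52 and 42.02 FPKM in vehicle and at 50.94, 42.94 and 43.12 FPKM in SAS. All 3 SAS libraries were above the vehicle libraries, but only SAS replicate 1 was so by more than a few FPKM. Its log2 fold change was 0.14 (95% confidence interval -0.02 to 0.29, limma adjusted p = 0.144), and on leaving out SAS replicate 1 it was 0.06 (adjusted p = 0.455). Blvrb made up 51.7%, 50.5% and 52.8% of the summed reductase FPKM in vehicle and 74.3%, 75.1% and 74.5% in SAS. Such shares are of mRNA and are no shares of activity on any given biliverdin isomer. The log2 difference between Blvrb and Blvra averaged 0.09 ± 0.06 in vehicle and 1.54 ± 0.03 in SAS (exact permutation p = 0.1, 2-sided, the smallest possible here). This outcome too was fixed by the values of each gene. As with the oxygenases, the pair was at near-equal levels in vehicle and far apart in SAS.

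**Figure D2:**
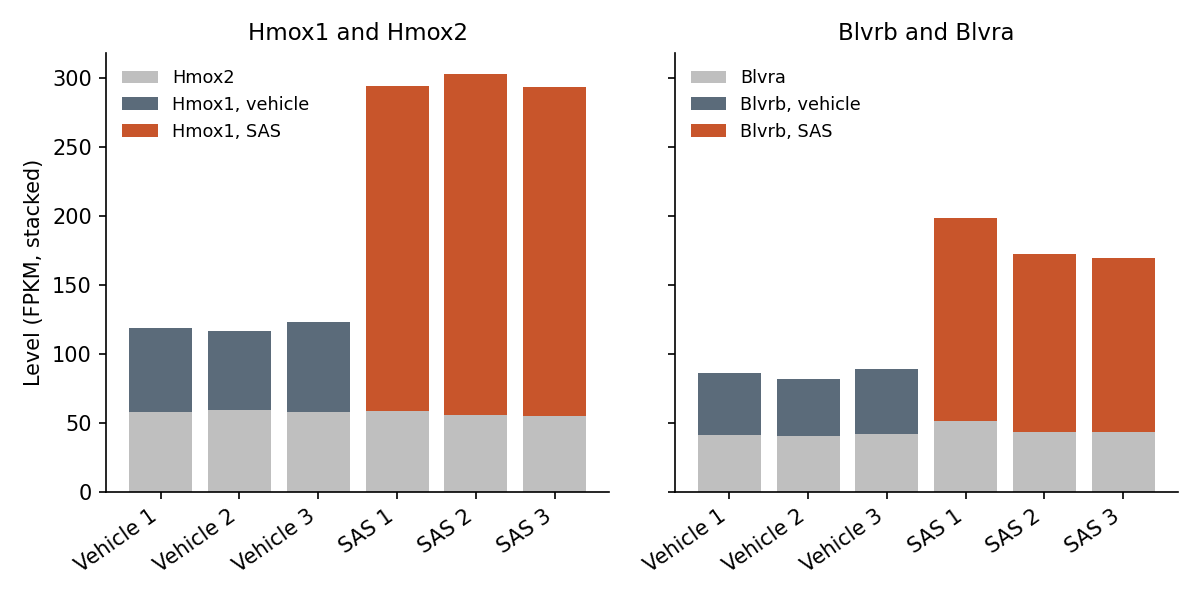
Stacked FPKM of the heme oxygenases (left) and of the biliverdin reductases (right) in each of the 6 libraries, with the grey part for Hmox2 or Blvra and the coloured part for Hmox1 or Blvrb. The grey parts stay between 54.87 and 59.45 FPKM for Hmox2 and between 40.52 and 50.94 FPKM for Blvra, while the coloured parts grow from vehicle to SAS.

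The promoters of the reductases are shown because the members of this pair differed so much in response. Both are the 250 bases before the most upstream start site in the RefSeq table of mouse assembly GRCm38.p6, on the plus strand, and neither overlaps an annotated exon of GENCODE M21. Blvra lies at chr2:127070407-127070656 and Blvrb at chr7:27447728-27447977. The capitals mark matches, on either strand, to the antioxidant response element core TGACNNNGC in Blvra and to the GC box GGGCGG in Blvrb.
Blvra: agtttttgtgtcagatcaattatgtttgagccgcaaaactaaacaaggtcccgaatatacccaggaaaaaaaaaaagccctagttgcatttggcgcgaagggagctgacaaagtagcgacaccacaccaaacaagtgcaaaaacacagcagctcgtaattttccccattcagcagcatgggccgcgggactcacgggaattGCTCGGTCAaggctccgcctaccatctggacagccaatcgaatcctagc
Blvrb: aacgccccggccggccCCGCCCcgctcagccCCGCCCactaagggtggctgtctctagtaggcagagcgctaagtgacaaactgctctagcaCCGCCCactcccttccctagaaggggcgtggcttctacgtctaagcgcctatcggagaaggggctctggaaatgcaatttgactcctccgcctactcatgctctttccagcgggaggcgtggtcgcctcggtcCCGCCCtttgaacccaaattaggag

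The single response element match lay 49 bases before the Blvra start site, and no window of Blvrb held one. This core occurs in 12.4% of the 32851 promoter windows of the table. Sites farther away were not searched. Each window spans 250 bases before and 50 bases after a start site. The GC box occurs in 35.7% of windows, and 38.2% of genes hold it in any window. Blvrb held it 5 times in its most upstream window, 4 of them before the start site. The other Blvrb window held none. Every other gene with a window except Blvra also held it, Alad up to 6 times and Hmox2 up to 4 times in a single whole window. Those of Hmox2 lay on both sides of the start site, at -23, -17, 1 and 7. Of the 10 genes, 7 had a window in the table, 13 windows in all, and Hmox1, Slc48a1 and Fech had none.

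Slc48a1, also called HRG1, exports heme from lysosomes into the cytosol and was the most abundant of the 10 genes in vehicle. Its level was 134.59, 139.46 and 134.81 FPKM in vehicle and 226.66, 242.19 and 245.71 FPKM in SAS. The groups did not overlap, and the gap between them was several times the spread within either. The mean rose from 136 ± 2.75 to 238 ± 10.1 FPKM (limma adjusted p = 2.49e-06, log2 fold change 0.80 with an SE of 0.05), rank 102 from the top. In SAS, Slc48a1 and Hmox1 reached nearly the same level.

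The synthesis enzymes differed less than Hmox1, Blvrb and Slc48a1, and not all in 1 direction. Of the 5, Uros, Fech and Ppox rose, Alad fell and Alas1 did not pass the test, and their median log2 fold change was 0.27. The synthesis enzymes Urod and Cpox, counted in a later list, did not pass (limma adjusted p = 0.395 and 0.362). Their log2 fold changes were 0.061 and -0.096, so the median of the 5 does not describe the whole pathway. The summed level of the 5 was 109 ± 1.3 FPKM in vehicle and 118 ± 2.0 FPKM in SAS, 1.08 times as high.

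Alas1, the rate-setting enzyme, stood at 25.24, 24.21 and 23.50 FPKM in vehicle and at 27.67, 28.28 and 25.03 FPKM in SAS. SAS replicate 3 lay within the vehicle range and the other SAS libraries above it. Its log2 fold change was 0.14 (95% confidence interval 0.00 to 0.28) and did not pass after adjustment (limma adjusted p = 0.0962). Without SAS replicate 3 it was 0.20 and passed (adjusted p = 0.0459). The ratio of Hmox1 to Alas1 was 2.42, 2.34 and 2.78 in vehicle and 8.52, 8.75 and 9.54 in SAS.

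Alas1 was also the only one of the 7 genes with a window that matched CGCATGCG, the centre of the palindrome bound by nuclear respiratory factor 1, a regulator of genes for mitochondrial proteins that is known to act on Alas1. The match is shown in capitals within 30 bases of the first exon, at chr9:106247906-106247935 on the minus strand of GRCm38.p6. It begins at base 31 from the most upstream start site, and the motif is found in 1.87% of all windows.
Alas1: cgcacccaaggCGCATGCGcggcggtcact
The mRNA of that factor, Nrf1, fell from 27.4 ± 1.53 to 22.95 ± 1.21 FPKM (log2 fold change -0.25, limma adjusted p = 0.0115), a call lost on leaving out Vehicle replicate 1 (adjusted p = 0.0635).

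Alad, which condenses the ALAS product into porphobilinogen, was the only one of the 10 genes to pass as lower. Its level was 45.76, 47.35 and 46.30 FPKM in vehicle and 42.10, 41.00 and 42.45 FPKM in SAS. The groups did not overlap, though they were only a few FPKM apart. The mean fell from 46.5 ± 0.809 to 41.85 ± 0.757 FPKM (limma adjusted p = 0.0416, log2 fold change -0.15 with an SE of 0.05). The call was lost on leaving out Vehicle replicate 1, 2 or 3 (adjusted p = 0.0944, 0.129 and 0.0698) and on leaving out SAS replicate 1, 2 or 3 (adjusted p = 0.0574, 0.109 and 0.072). It was also lost with size factors (adjusted p = 0.0511), with libraries at a common FPKM sum (adjusted p = 0.0878) and without the intensity trend (adjusted p = 0.0629), always with a negative log2 fold change.

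Uros, which closes the tetrapyrrole ring, was the least abundant of the 10 genes. It stood at 5.23, 4.14 and 4.86 FPKM in vehicle and at 6.43, 6.66 and 6.29 FPKM in SAS, with no overlap. The mean rose from 4.74 ± 0.554 to 6.46 ± 0.187 FPKM (limma adjusted p = 0.00383, log2 fold change 0.38 with an SE of 0.08).

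Ppox, which oxidises protoporphyrinogen at the inner mitochondrial membrane, stood at 8.84, 9.0 and 9.64 FPKM in vehicle and at 11.29, 11.47 and 10.87 FPKM in SAS. All SAS libraries were above all vehicle libraries. The mean rose from 9.16 ± 0.423 to 11.2 ± 0.308 FPKM (limma adjusted p = 0.00793, log2 fold change 0.27 with an SE of 0.06).

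Fech, which inserts the iron, stood at 25.46, 24.38 and 23.63 FPKM in vehicle and at 30.37, 32.57 and 31.35 FPKM in SAS, again with no overlap. The mean rose from 24.5 ± 0.92 to 31.4 ± 1.1 FPKM (limma adjusted p = 0.000922, log2 fold change 0.35 with an SE of 0.06). Alas1 and Fech, the ends of the pathway, were at almost the same level in vehicle, with Alas1 at 0.991, 0.993 and 0.994 times Fech, and in SAS the ratio was 0.911, 0.868 and 0.798. The 3 rises of Uros, Ppox and Fech held with each library left out and under every other setting tried.

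**Figure D3:**
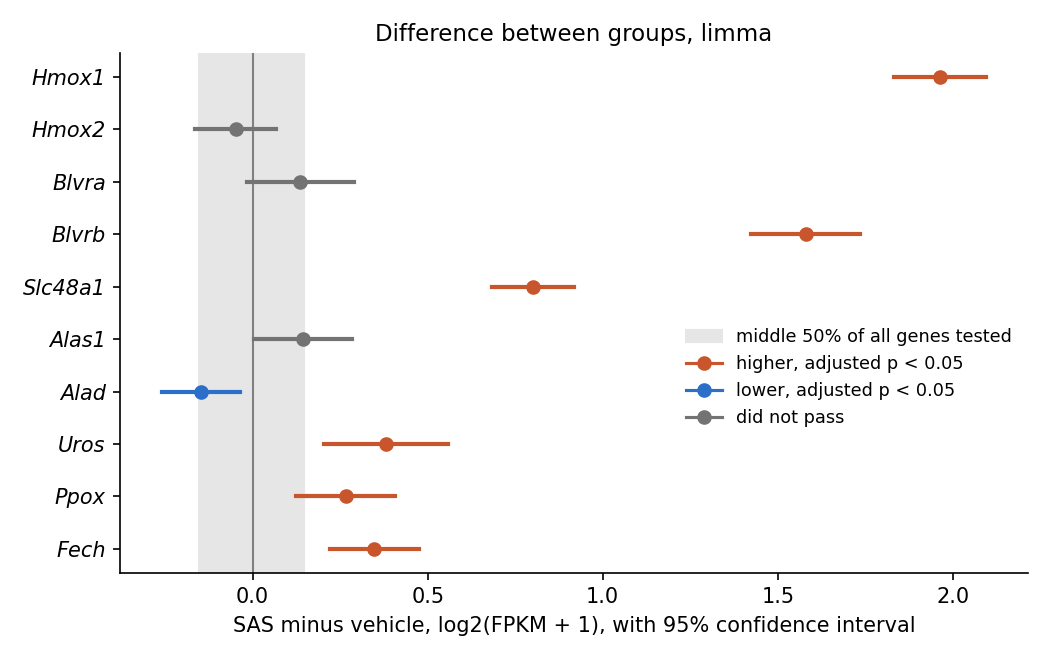
Difference between SAS and vehicle for each gene on the log2(FPKM + 1) scale, with its 95% confidence interval from limma, and a grey band for the middle 50% of all 10615 genes tested. Hmox1, Blvrb and Slc48a1 lie far to the right of the band, at 1.96, 1.58 and 0.80, while Alad, Alas1, Blvra and Hmox2 lie within it.

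Other enzymes of the pathway were read beside these. Urod, which removes carboxyl groups, averaged 33.1 ± 0.943 FPKM in vehicle against 34.5 ± 0.507 FPKM in SAS, and Cpox, which acts before Ppox, 13.3 ± 0.662 against 12.4 ± 1.3 FPKM. Neither passed (limma adjusted p = 0.395 and 0.362). In vehicle, Alad was the most abundant of the synthesis enzymes named here, followed by Urod, Fech, Alas1, Cpox, Ppox and Uros, with Fech and Alas1 overlapping.

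Among 14 tested genes of the remaining synthesis machinery and its mitochondrial transport, which include Urod and Cpox, 3 rose and 1 fell, with a median log2 fold change of 0.02. Over all genes tested, 18.9% passed as higher and 18.5% as lower. The small counts of this list and of those below stand beside these shares, and no list was tested as a set. The porphyrin transporter Abcb6 rose from 23.2 ± 1.15 to 34.7 ± 2.94 FPKM (log2 fold change 0.56, limma adjusted p = 0.000157). Lonp1, the mitochondrial protease that degrades ALAS1, rose from 83.1 ± 1.27 to 105 ± 2.42 FPKM, and the mitochondrial carrier Slc25a39 from 297 ± 4.15 to 365 ± 2.99 FPKM. Slc25a38, a carrier linked to glycine import for heme, fell from 16.2 ± 0.885 to 13.9 ± 0.704 FPKM (limma adjusted p = 0.0322). Its call was lost on leaving out Vehicle replicate 2 or 3 (adjusted p = 0.0891 and 0.0957), on leaving out SAS replicate 1 or 3 (adjusted p = 0.0872 and 0.0627), with no filter on low values (adjusted p = 0.0587) and at a common FPKM sum (adjusted p = 0.0589).

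Of 11 tested genes for heme transport and binding, 3 rose and 0 fell, with a median log2 fold change of 0.07. The importer of folate and heme Slc46a1 rose from 5.52 ± 0.257 to 7.81 ± 0.588 FPKM and the heme-binding protein Hebp1 from 2.54 ± 0.0321 to 3.64 ± 0.0656 FPKM. Prdx1, a peroxiredoxin that binds heme, rose from 802 ± 53.9 to 1018 ± 127 FPKM, with SAS replicate 1 the highest library at 1165 FPKM. The Prdx1 call was lost on leaving out Vehicle replicate 2 (limma adjusted p = 0.0504) and with no filter (adjusted p = 0.0759). The plasma membrane heme exporter Flvcr1 did not pass, with a mean of 2.65 ± 0.252 FPKM in vehicle against 2.16 ± 0.307 FPKM in SAS (limma adjusted p = 0.0759).

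Genes that fit heme into proteins, or that carry it, had medians near that of all genes. Of 5 tested genes for heme a and heme c assembly, 1 rose and 1 fell, with a median log2 fold change of -0.04. Surf1, an assembly factor of cytochrome oxidase, rose from 34.1 ± 1.97 to 40.3 ± 2.92 FPKM, a call lost on leaving out Vehicle replicate 2 (limma adjusted p = 0.0854), on leaving out SAS replicate 1 (adjusted p = 0.0556) and with no filter (adjusted p = 0.0666). Hccs, which attaches heme to cytochromes c, fell from 3.94 ± 0.274 to 3.23 ± 0.323 FPKM, a call lost on leaving out Vehicle replicate 1 or 2 (limma adjusted p = 0.142 and 0.122), on leaving out SAS replicate 2 or 3 (adjusted p = 0.12 and 0.137), with no filter (adjusted p = 0.105) and at a common FPKM sum (adjusted p = 0.0561).

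Of 20 tested heme proteins and related redox genes, 4 rose and 2 fell, with a median log2 fold change of 0.08. The shares over all genes tested were 18.9% higher and 18.5% lower. Dgcr8, a heme-binding partner in microRNA processing, fell from 6.98 ± 0.338 to 5.08 ± 0.188 FPKM (log2 fold change -0.39, limma adjusted p = 0.0012). The low-level nitric oxide synthase Nos3, whose mean was 0.333 ± 0.0208 FPKM under vehicle against 0.73 ± 0.0794 with SAS, is counted among the 4, but it passed the filter at a mean of 0.5 FPKM only through its SAS values. On leaving out SAS replicate 1 or 3 it fell under that filter and was not tested. Cytochrome b5 (Cyb5a) rose from 471 ± 33.02 to 564 ± 40.9 FPKM, a call lost on leaving out Vehicle replicate 1 or 2 (limma adjusted p = 0.0687 and 0.0535) and with no filter (adjusted p = 0.0682). The ferrireductase Steap3 rose from 45.8 ± 0.853 to 55.7 ± 6.84 FPKM, a call lost on leaving out Vehicle replicate 1 or 2 (limma adjusted p = 0.0608 and 0.0577), on leaving out SAS replicate 3 (adjusted p = 0.0608) and with no filter (adjusted p = 0.0924). SAS replicate 3 was the highest at 63.04 FPKM, and without it the log2 fold change of Steap3 was 0.18 against 0.27 with all libraries.

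Among 15 tested regulators, counting the reductase that feeds electrons to heme oxygenase, 4 rose and 2 fell, with a median log2 fold change of 0.11. That reductase, Por, rose from 50.3 ± 2.49 to 64.4 ± 8.08 FPKM (log2 fold change 0.34, limma adjusted p = 0.00679), with SAS replicate 3 the highest at 73.66 FPKM, and lost its call with no filter (adjusted p = 0.0582). The small MAF protein Maff, a partner of NRF2 and BACH1, rose from 4.68 ± 0.731 to 7.29 ± 1.07 FPKM. Mafk rose from 10.8 ± 0.65 to 13.3 ± 1.11 FPKM, a call lost on leaving out Vehicle replicate 2 (limma adjusted p = 0.065), on leaving out SAS replicate 2 (adjusted p = 0.0576) and with no filter (adjusted p = 0.0542). The mRNA of the repressor Bach1 was 1.56 ± 0.12 FPKM in vehicle and 1.55 ± 0.12 FPKM in SAS (limma adjusted p = 0.971), and that of NRF2 (Nfe2l2) was 33.4 ± 5.64 and 35.9 ± 2.94 FPKM (adjusted p = 0.425). Neither passed. Both proteins are known to be controlled also after transcription. No protein was measured, and the part of either in these differences was not tested.

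Of 11 tested genes that handle the iron set free by heme breakdown, 2 rose and 3 fell, with a median log2 fold change of 0.10. The ferritin heavy chain Fth1 stood at 3705, 3731 and 3698 FPKM in vehicle and 6504, 6584 and 6446 FPKM in SAS, and its log2 fold change of 0.81 was nearly that of Slc48a1 (0.80). The light chain Ftl1, which has near-identical copies in the genome that may share its reads, rose from 14085 ± 105 to 17976 ± 594 FPKM. The Ftl1 call was lost with quantile normalization (limma adjusted p = 0.526), where the log2 fold change was 0.05, and with no filter (adjusted p = 0.0822). The iron chaperone Pcbp2 fell from 654 ± 23.8 to 505 ± 24.1 FPKM. Ireb2, an iron-sensing RNA-binding protein, fell from 2.53 ± 0.404 to 1.88 ± 0.172 FPKM, a call lost on leaving out Vehicle replicate 1 or 2 (limma adjusted p = 0.0829 and 0.105), on leaving out SAS replicate 1 or 3 (adjusted p = 0.0708 and 0.0723) and with no filter (adjusted p = 0.106). The iron exporter Slc40a1 did not pass, with a mean of 0.983 ± 0.186 FPKM in vehicle against 1.11 ± 0.085 FPKM in SAS (limma adjusted p = 0.367).

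**Figure D4:**
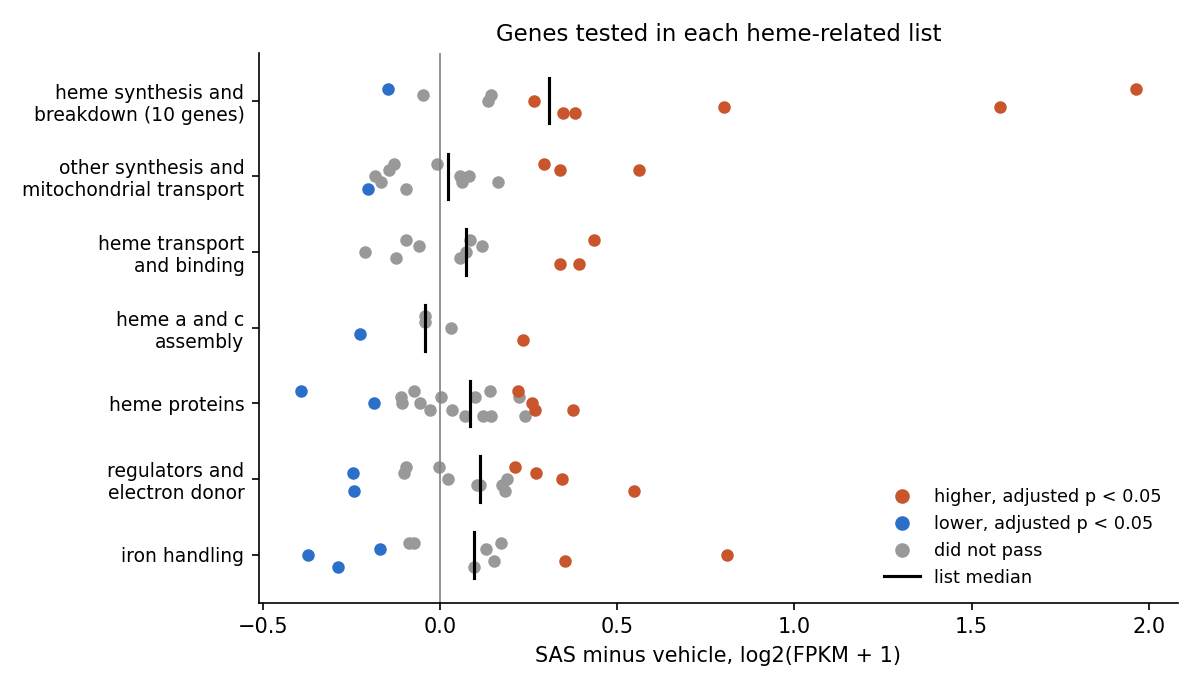
Difference between SAS and vehicle on the log2(FPKM + 1) scale for every tested gene of the 10 heme genes and of 6 related lists, coloured by the limma call, with a black line at each list's median. The 10 heme genes have a median of 0.31 and reach 1.96, and the medians of the related lists lie between -0.04 and 0.11. The genes of all these lists were chosen with earlier results of these data known, so their medians are no test.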

How the data were processed

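Total RNA of B16F10 cells was sequenced as BGISEQ-500 libraries, 3 per group, per the labels. Values in the deposited table are FPKM to 2 decimals, per the file headers. FastQC, HISAT and Bowtie2 are named without roles, per the submitters' processing notes. The FPKM program, and the build and annotation behind it, are unknown (not given in the sources used here). Columns named 24 h were taken as SAS, and those named 0 h as vehicle by elimination. Depth in fragments is unknown. Of 2881 low values in 607 genes, 23.3% were whole multiples of the gene's lowest value within 0.15. Rounding to 2 decimals blurs such multiples at these low values, so this share cannot show depth. No count test or counting interval was used. The labels do not say that replicates were separate cultures, so the p-values cover the spread of these libraries alone, possibly a technical one.

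Symbols of 16206 of the 16315 identifiers (99.3%) came from the RefSeq table of GRCm38.p6. The 10 genes and all related lists were chosen with earlier results of these data known. Differences were tested on log2(FPKM + 1) with limma 3.58.1 (R 4.3.3), letting the variance follow intensity. Genes averaging 0.5 FPKM or more were tested (10615), p-values were adjusted over all of them by Benjamini-Hochberg, and the threshold was 0.05. All 10 heme genes passed this filter. One further gene of the pathway is not reported here. Fold changes on that scale understate those of low genes. The script was tested on simulated data. The differences between the oxygenases and between the reductases used an exact permutation test (scipy 1.17.1). In each related list the text names up to 4 changed genes with the largest absolute log2 fold change. The genes named without a call, the marker genes and the motifs were picked with values in view. Each library was left out in turn, and other settings were a replicate block, no trend, robust estimation, quantile normalization, a common FPKM sum, size factors, a filter at 5 FPKM or none, and pseudocounts of 0.5 and 0.1.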

Additional observations from a re-analysis of the deposited data

How the results depend on the processing

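Over the 16 alternatives, the 10 heme genes gave 160 repeats, of which 150 kept both their direction and their side of the threshold. The exceptions were the lost calls of Alad (9 alternatives) and the gained call of Alas1 (1 alternative), and no heme gene changed direction. The count of heme genes called lower was 0 with size factors, at a common FPKM sum and without the intensity trend, and 0 to 0 with each library left out. The count called higher was 6 to 7. The cause was not tested. Hmox1 kept a log2 fold change of 1.91 to 2.01 and Blvrb of 1.51 to 1.62 with each library left out. The log2 difference between Hmox1 and Hmox2 was 1.95 to 2.07, and that between Blvrb and Blvra 1.41 to 1.48. Counts over all genes ranged from 2787 to 4345 against 3969. The lowest came with the filter at 5 FPKM, which tests fewer genes, so the counts are not all out of the same number. With each library left out they were 2899 to 3768. Libraries with the same number did not all deviate together (correlations of -0.08, 0.145 and 0.234 for numbers 1, 2 and 3). Those with different numbers gave -0.406 to 0.347, so these few correlations cannot decide whether libraries were paired. The numbers were not taken as pairs. A replicate block called 4345 genes and the same number of heme genes, 6 higher and 1 lower. In the related lists, small counts moved. Calls of heme proteins ranged from 1 to 5 higher and 1 to 2 lower, those of regulators from 1 to 6 higher and 1 to 2 lower, and those of iron genes from 1 to 3 in either direction. Calls of heme a and c assembly ranged from 0 to 1 in either direction. Lower calls of the other synthesis genes and of heme transport ranged from 0 to 1.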
